A study of Caenorhabditis elegans with 12 samples.

Results

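The germ granule DEAD-box helicases of *C. elegans* were examined as targets of sRNAs in worms with mutated FG repeats in the GLH proteins. The group held 10 genes taken from a fixed list: the Vasa-like *glh-1*, *glh-2*, *glh-3* and *glh-4*, the related *vbh-1* and *laf-1*, *cgh-1*, *rde-12*, and the paralogs *mut-14* and *smut-1*. Each gene was read from its antisense row in the deposited tables and, for 9 of the 10 genes, from its sense row as well, out of 63014 rows of features and 19691 protein-coding genes with an antisense row. All 10 antisense rows were among the 4080 features that the study listed as WAGO-4 targets in both genotypes, of 4850 WT targets and 4185 3×FG targets. The rule for the list uses no measured value, but the genes were proposed with earlier results of these data known.

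The study sequenced sRNAs in 12 libraries made from whole worms at the young adult stage, grown at 20 °C. The 3×FG worms (strain SS142) carried *glh-1(allele50[glh-1F>A])*, *glh-4(allele16[glh-4F>A])* and *glh-2(allele49[glh-2 delFG])*, all on chromosome I, and *wago-4(gg620[3xflag::gfp::wago-4])* on chromosome II. The WT worms (strain YY1325) carried *wago-4(gg620[3xflag::gfp::wago-4])* alone, so that both genotypes expressed tagged WAGO-4. For each genotype there were 3 WAGO-4 IPs and 3 inputs, the inputs being the sRNAs of the same lysates before IP. In GLH-1 and GLH-4 the phenylalanines of FG dipeptides were replaced by alanine at the native loci, whereas in GLH-2 the FG stretch was removed. Each genotype was 1 strain, and a lysate pools many whole worms. The study describes the replicates as biological, and the labels do not say whether the lysates came from separate cultures, so the p-values measure the spread between these lysates.

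DEAD-box helicases use ATP to unwind RNA or to strip proteins from it, and many of them gather in RNA-rich condensates. In the worm germline such condensates sit at the nuclear envelope. P granules contain the GLH helicases, Z granules contain WAGO-4 and its partner ZNFX-1, and Mutator foci amplify secondary sRNAs known as 22G-RNAs. A 22G-RNA is copied from a target transcript by an RNA-dependent RNA polymerase, is therefore antisense to its target, and is bound by Argonautes such as WAGO-4 and CSR-1. The helicases are thus part of the machinery for germline sRNAs, and their own transcripts are templates for 22G-RNAs. The values below are sRNA levels against these transcripts, not levels of helicase mRNA or protein.

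Between 3×FG and WT worms, the largest difference in the group concerned *smut-1*, whose antisense sRNAs in the WAGO-4 IP fell to a mean of 31.3 ± 6.48 RPM in 3×FG, against 274 ± 52.1 RPM in WT (SD, n = 3 each). Its paralog *mut-14* was higher in the 3×FG IPs, at a mean of 1172 ± 62.6 RPM, against 833 ± 40.0 RPM in WT (SD, n = 3 each). Of the 3 genes that carried edits, *glh-2* rose in the inputs, with 56.0 ± 4.83 RPM in 3×FG and 18.6 ± 3.38 RPM in WT (SD, n = 3 each), whereas the antisense levels and ratios of *glh-1* overlapped between genotypes. The sRNAs of *vbh-1* were at a mean of 92.0 ± 18.3 RPM in the 3×FG inputs, against 202 ± 27.7 RPM in the WT inputs (SD, n = 3 each), while the IP levels overlapped, and its ratio of IP to input rose in 3×FG.

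**Figure D1:**
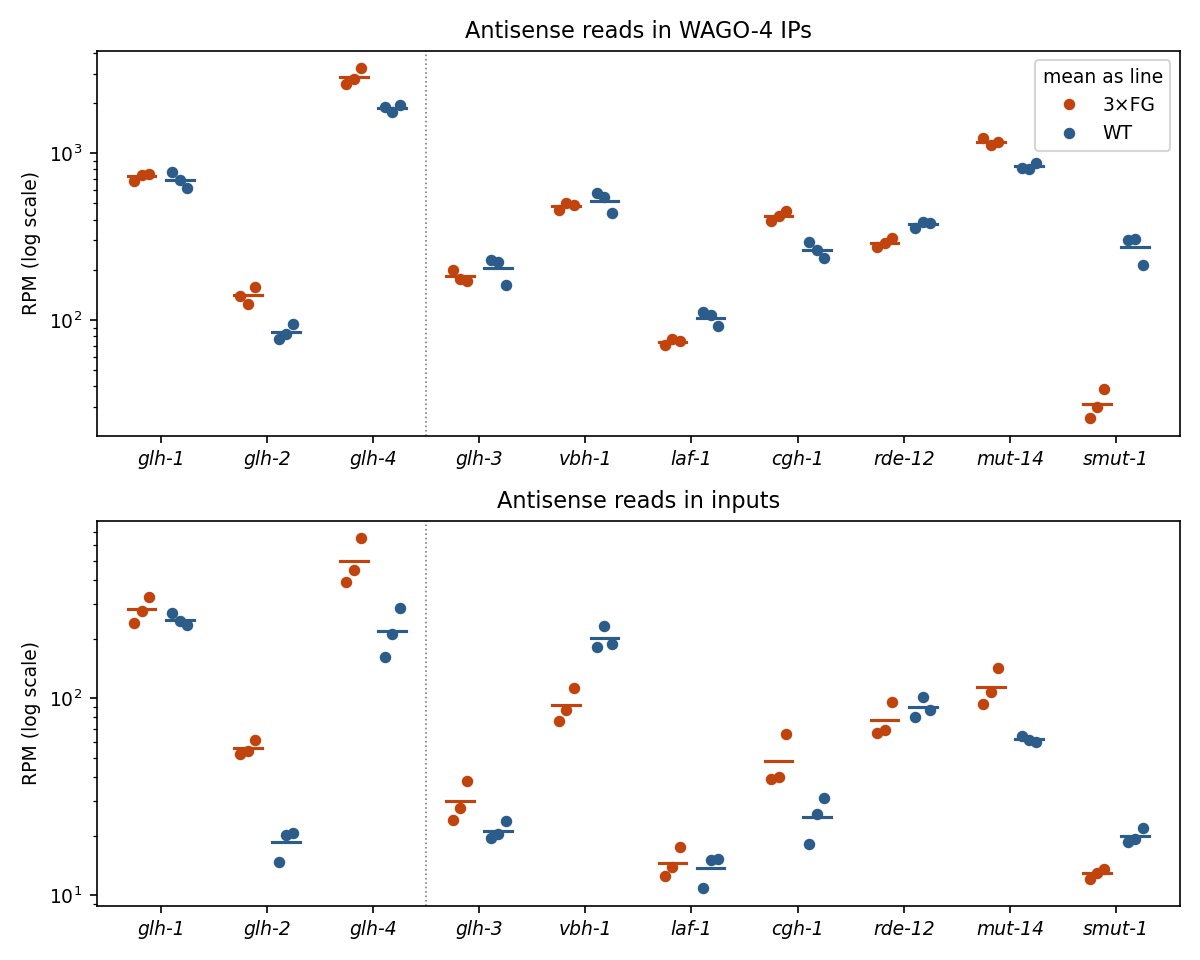
Antisense RPM of the 10 helicase genes in the WAGO-4 IPs (upper panel) and in the inputs (lower panel) on log scales, with 1 point per library and the mean as a line, 3×FG left of WT; the dotted line separates the 3 edited genes from the 7 unedited ones. *smut-1* stands lowest in the 3×FG IPs at 25.7 to 38.4 RPM, against 213 to 306 RPM in WT, and *vbh-1* is lower in the 3×FG inputs with overlapping IPs.

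The inputs differed in depth and in the batch they were assigned to. The 3×FG inputs held 78826261, 45860107 and 11890545 counts, against 2208475, 5200665 and 20006273 in the WT inputs. WT inputs 1 and 2 were taken as one batch (A) and the other 10 libraries as another (B). The library names of WT inputs 1 and 2 differ in form from those of the other inputs. rRNA reads made up 15.2% to 19.3% of counts in the 3×FG inputs, 20.1% in WT input 3 and 3.18% and 4.95% in WT inputs 1 and 2. The muscle miRNA miR-1-3p stood at 45717 to 61612 CPM (counts scaled to a library total of 1000000) in the 3×FG inputs and 37887 to 94934 CPM in the WT inputs. The adult let-7-5p stood at 2738 to 3524 CPM in 3×FG and 2393 to 2479 CPM in WT. The genotypes overlapped for lin-4-5p, also of late larvae and adults, at 556, 566 and 295 CPM in 3×FG and 345, 385 and 344 CPM in WT. The 8 3p arms of the mir-35 family, which mark oocytes and embryos, summed to 11281 to 12911 CPM in 3×FG and 15991 to 36737 CPM in WT. In whole worms, fewer germ cells and less sRNA per cell cannot be told apart, and the part of these differences in the results below was not tested.

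The deposited RPM tables scale each library to its own reads, and 2 shifts of the whole table bear on every member. Over the 4080 features the median log2 fold change was -0.30 in the IPs and -0.67 in the ratio of IP to input. Features listed as targets in a single genotype are left out, so medians, ranks and shares over the 4080 do not cover WT targets lost in 3×FG. With TMM factors, which centre the bulk of the features on no change, these medians were 0.01 and 0.05. The split of called features moved with it, from 25 higher and 803 lower to 97 higher and 531 lower in the IPs, and from 10 higher and 983 lower to 84 higher and 79 lower in the ratio. In the inputs, total-count scaling gave 249 higher and 385 lower features and TMM gave 187 higher and 454 lower. A feature was called where the adjusted p was under 0.01 and the log2 fold change lay beyond -1 or 1, limits taken after the study's comparison of the IPs and applied here to all 3 comparisons with the adjusted p, and "rose" and "fell" are kept for features so called.

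In the inputs, 1 of the 10 antisense rows was called (*glh-2*), where 2.87% of the 22301 features tested were called (edgeR). At an unadjusted p under 0.05 (edgeR) there were 6, against 5748 of the 22301 features. DESeq2 called 2, *glh-2* and *vbh-1*, with a background of 10.9%. In the IPs 1 was called (*smut-1*), with a background of 20.3% of the 4080 features (limma). Without the limit on the fold change, 7 of the 10 had an adjusted p under 0.01, against 49.0% of all features. Of these 7, 4 were higher in 3×FG (8.55% of all features) and 3 were lower (40.5%). In the ratio of IP to input 2 were called (*vbh-1* and *smut-1*), with a background of 24.3%, nearly all of it lower in 3×FG. The share of ratios called higher was 0.245% of all features, and *vbh-1* was 1 of those 10 features.

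Without any test, the 3 RPM values of 3×FG and the 3 of WT did not overlap for 7 of the 10 members in the inputs, against 47.2% of all 4080 features. In the IPs they did not overlap for 7 members (68.7% of features), and the ratios did not for 5 (58.5%). The shares of members were thus near the background in the IPs and the ratio, and no difference from other features was tested.

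*glh-1* encodes a constitutive P granule component and lies at I:6854478-6857536 on the plus strand of WBcel235, with 2769 exonic bases. Its IP levels were 685, 741 and 750 RPM in 3×FG, against 771, 693 and 617 RPM in WT. The input levels were 241, 279 and 328 RPM in 3×FG and 270, 248 and 235 RPM in WT. Both sets of values overlapped, and the ratios of IP to input also did, at 2.84, 2.66 and 2.29 in 3×FG and 2.85, 2.79 and 2.63 in WT. The log2 fold changes were -0.01 in the inputs (standard error 0.16, edgeR adjusted p = 0.97), 0.07 in the IPs (standard error 0.10, limma adjusted p = 0.56) and -0.09 in the ratio (standard error 0.24, limma adjusted p = 0.76). After TMM scaling the IP change was 0.39 and the ratio change 0.68 (limma adjusted p = 0.0015 and 0.0087).

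*glh-2* encodes a close paralog of GLH-1 and lies on the same chromosome at I:6513928-6517507, plus strand, with 3218 exonic bases. In the inputs it stood at 52.3, 54.3 and 61.5 RPM in 3×FG, against 14.7, 20.2 and 20.8 RPM in WT. All 3 libraries of 3×FG lay far above the highest WT library. The IP levels were 139.3, 125 and 158 RPM in 3×FG and 77.2, 82.1 and 94.9 RPM in WT, again without overlap. The input change was 1.32 on the log2 scale (standard error 0.17, edgeR adjusted p = 0.0059) and remained at 1.26 with the batch as a term and 1.27 within batch B (edgeR adjusted p = 0.0066 and 0.0072). It lost its call without any one of the inputs other than WT input 3, at log2 fold changes of 1.32 to 1.44 and adjusted p of 0.010 to 0.047. The IP change was 0.72 (standard error 0.12, limma adjusted p = 0.00070) and reached 1.04 with TMM scaling.

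The input of *glh-2* differed by more than its IP, and the ratios were lower in 3×FG, at 2.66, 2.31 and 2.56 against 5.26, 4.06 and 4.56 in WT. The change of the ratio was -0.83 (standard error 0.25, limma adjusted p = 0.0090), close to the median of -0.67 over all features. With TMM scaling it was -0.11 (limma adjusted p = 0.71). Part of the coding sequence is missing from the *glh-2* of 3×FG worms, and how this and the edited codons of *glh-1* and *glh-4* affected the matching of reads was not tested.

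*glh-4* encodes another P granule helicase with FG repeats and lies at I:3727027-3731179 on the plus strand, with 3747 exonic bases. It had the highest IP level of the group, at 2591, 2806 and 3236 RPM in 3×FG and 1886, 1766 and 1950 RPM in WT. The input levels were 392, 446 and 650 RPM in 3×FG and 162, 211 and 287 RPM in WT. Neither set overlapped. The IP change was 0.62 (standard error 0.10, limma adjusted p = 0.00063). The input change was 1.03 (standard error 0.24, edgeR adjusted p = 0.040), and 0.76 with the batch as a term (edgeR adjusted p = 0.063). The ratios of 6.62, 6.29 and 4.97 in 3×FG lay below those of 11.6, 8.36 and 6.79 in WT, but the change of -0.55 did not pass the test (standard error 0.29, limma adjusted p = 0.10) and was 0.21 with TMM scaling.

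*glh-3*, which carries no FG repeats and was not edited, lies at I:5792321-5795114 on the minus strand, with 2496 exonic bases. The IP levels overlapped, at 199, 177 and 171 RPM in 3×FG and 228, 223 and 162 RPM in WT. In the inputs the values were 24.2, 27.7 and 38.3 RPM in 3×FG and 19.5, 20.4 and 23.7 RPM in WT, with the nearest libraries of the groups at 24.2 and 23.7 RPM. The input change was 0.28 (standard error 0.19, edgeR adjusted p = 0.42), the IP change -0.15 (standard error 0.14, limma adjusted p = 0.36) and the ratio change -0.62 (standard error 0.27, limma adjusted p = 0.052). With TMM scaling the IP and ratio changes were 0.17 and 0.13, of the other sign.

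*vbh-1* encodes a Vasa- and Belle-like helicase of P granules and lies at I:3158492-3162391 on the minus strand, with 3475 exonic bases. In the inputs the antisense sRNAs stood at 76.7, 87.1 and 112 RPM in 3×FG, against 183, 234 and 190 RPM in WT. In the IPs they stood at 456, 502 and 491 RPM in 3×FG and 574, 544 and 438 RPM in WT. Thus the inputs were apart, in the WT library of batch B as in those of batch A, and the IPs overlapped. The input change was -1.30 (standard error 0.20, edgeR adjusted p = 0.0103), just outside the limit of 0.01, and -1.09 with the batch as a term (edgeR adjusted p = 0.0050). The IP change was -0.09 (standard error 0.11, limma adjusted p = 0.49) and 0.23 with TMM scaling.

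The *vbh-1* ratios were 5.95, 5.76 and 4.37 in 3×FG, against 3.13, 2.32 and 2.31 in WT. The ratio rose by 1.04 on the log2 scale (standard error 0.25, limma adjusted p = 0.0017), and 10 of the 4080 features had a larger increase. With TMM scaling the increase was 1.82 (limma adjusted p = 4.5e-06). On the RPM scale the change was close to the limit of 1 and fell below it, at 0.96 to 0.99, without WT lysate 2, WT lysate 3, 3×FG lysate 1 or 3×FG lysate 2, and at 0.96 with WT input 3 as the only WT input (limma adjusted p = 0.018).

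**Figure D2:**
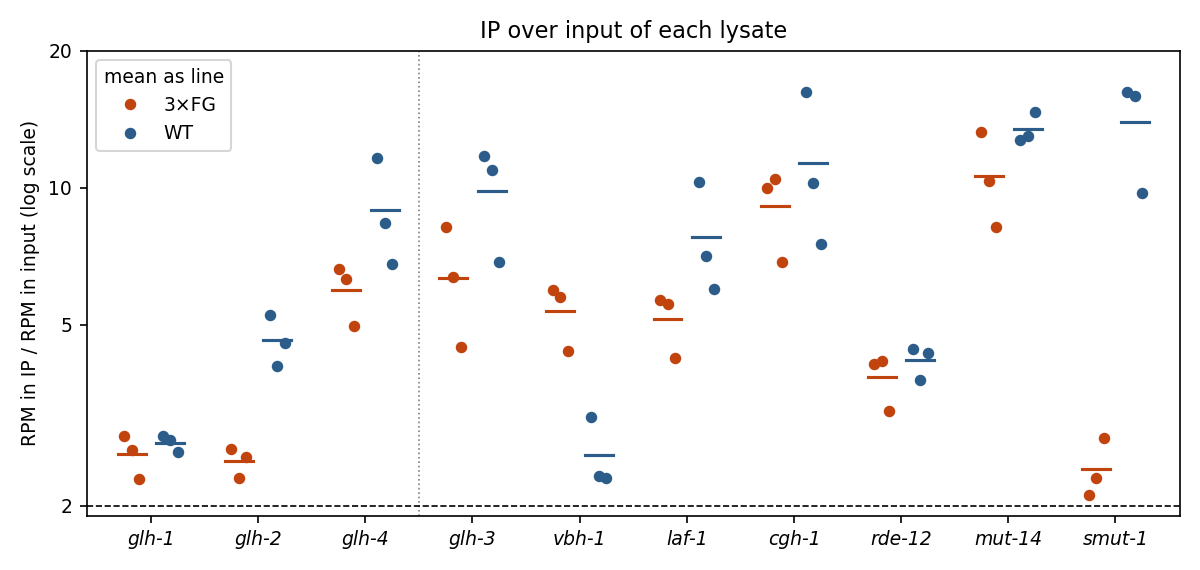
Ratio of IP RPM to input RPM on a log scale for each lysate, with 1 point per lysate and the mean as a line, 3×FG left of WT; the dashed line marks the ratio of 2 above which the study listed a target. *vbh-1* alone has all 3 3×FG ratios above WT, and *smut-1* lies at 2.11 to 2.82 in 3×FG against 9.72 to 16.2 in WT.

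*laf-1*, the worm ortholog of the DDX3 helicases, is a P granule component that forms condensates in vitro. It lies at III:2769356-2779053 on the minus strand, with 3657 exonic bases, inside the span of *cox-6B* on the other strand (III:2699663-2786859) but sharing 0 exonic bases with it. Its IP levels were 70.8, 77.1 and 74.4 RPM in 3×FG and 112, 107 and 91.4 RPM in WT, without overlap. The inputs overlapped, at 12.5, 13.9 and 17.6 RPM in 3×FG and 10.9, 15.0 and 15.3 RPM in WT. The IP change of -0.47 (standard error 0.10, limma adjusted p = 0.0038) lay near the median of all features and was -0.15 with TMM scaling (limma adjusted p = 0.11). The ratios were 5.68, 5.55 and 4.22 in 3×FG and 10.3, 7.08 and 5.99 in WT, without overlap, but the change of -0.56 did not pass the test (standard error 0.26, limma adjusted p = 0.073). The deposited counts held no sense row for *laf-1*.

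*cgh-1* encodes the worm DDX6, a translational repressor of stored maternal mRNAs, and lies at III:7495320-7497832 on the minus strand, with 2273 exonic bases. The IP levels were 390, 417 and 451 RPM in 3×FG and 294, 264 and 235 RPM in WT, without overlap. The inputs were at 38.9, 39.9 and 65.6 RPM in 3×FG and 18.1, 25.8 and 31.2 RPM in WT, also apart, with wide spread in both groups. The IP change was 0.67 (standard error 0.10, limma adjusted p = 0.00053) and 0.99 with TMM scaling. This placed the gene, which was not edited, between *glh-2* and *glh-4* in the IPs. The input change of 0.70 did not pass the test (standard error 0.25, edgeR adjusted p = 0.13), nor did the ratio change of -0.24 (standard error 0.29, limma adjusted p = 0.47), which was 0.50 with TMM scaling.

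*rde-12* encodes a helicase with FG dipeptides that acts in RNAi with the Argonaute RDE-1 and was not edited in these worms. It lies at V:13665389-13669292 on the plus strand, with 3285 exonic bases. The IP levels were 274, 290 and 309 RPM in 3×FG and 357, 386 and 379 RPM in WT, without overlap. The inputs overlapped, at 66.8, 69.4 and 95.6 RPM in 3×FG and 80.6, 102 and 87.4 RPM in WT. The IP change was -0.36 (standard error 0.08, limma adjusted p = 0.0046), near the median of all features, and -0.04 with TMM scaling (limma adjusted p = 0.66). The ratio change was -0.13 (standard error 0.25, limma adjusted p = 0.65), and 0.64 with TMM scaling (limma adjusted p = 0.0032).

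*mut-14* and *smut-1* encode paralogous helicases of the Mutator foci with overlapping roles in 22G-RNA production, and both lie on chromosome V. *mut-14* is at V:5658713-5660704 on the minus strand, with 1748 exonic bases, and *smut-1* at V:6097105-6099083 on the plus strand, with 1755 exonic bases. For *mut-14*, the IP levels were 1238, 1114 and 1163 RPM in 3×FG and 818, 803 and 879 RPM in WT. The inputs were at 93.2, 108 and 141.9 RPM in 3×FG and 64.3, 61.7 and 59.9 RPM in WT. Both were higher without overlap in 3×FG. The IP change was 0.49 (standard error 0.08, limma adjusted p = 0.00074), below the limit of 1, and the input change was 0.65 (standard error 0.17, edgeR adjusted p = 0.063). The ratios overlapped, at 13.3, 10.3 and 8.20 in 3×FG and 12.7, 13.0 and 14.7 in WT, with a change of -0.36 (standard error 0.24, limma adjusted p = 0.21).

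For *smut-1*, the IP levels were 25.7, 29.9 and 38.4 RPM in 3×FG and 302, 306 and 213 RPM in WT. The 3×FG mean was 0.115 times the WT mean, and the groups were far apart. The inputs were at 12.2, 13.0 and 13.6 RPM in 3×FG and 18.6, 19.2 and 21.95 RPM in WT, a smaller difference, again without overlap. In the IPs *smut-1* fell by 3.09 on the log2 scale (standard error 0.18, limma adjusted p = 2.0e-06), and 10 of the 4080 features had a larger decrease. The input change of -0.83 did not pass the test (standard error 0.18, edgeR adjusted p = 0.031). The ratio fell by 2.50 (standard error 0.27, limma adjusted p = 1.4e-07), more than in all but 3 features, and the change was -1.69 with TMM scaling (limma adjusted p = 0.00033). These ranks cover only features that stayed targets in 3×FG, so WT targets that lost this status there are not counted.

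The *smut-1* ratios were 2.11, 2.30 and 2.82 in 3×FG, against 16.2, 15.9 and 9.72 in WT. In 3×FG *smut-1* was therefore just inside the study's definition of a target, a ratio of at least 2 and at least 5 RPM in each IP. At a stricter ratio of 3 in each pair, 7 of the 10 members were targets in 3×FG and 8 in WT, where *glh-2* and *smut-1* passed in WT and not in 3×FG, and *vbh-1* passed in 3×FG and not in WT. The *smut-1* call in the IPs and in the ratio was kept under every alternative run, including the omission of each library or lysate in turn.

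The 2 paralogs share sequence, so reads that match both could be split between them, and the reads were counted by the authors. The sum of *smut-1* and *mut-14* in the IPs was 1203 ± 60.1 RPM in 3×FG and 1107 ± 13.97 RPM in WT (SD, n = 3 each). In the inputs the sum was 127 ± 25.7 RPM in 3×FG and 81.9 ± 0.952 RPM in WT (SD, n = 3 each). Within the IP sum the share of *smut-1* was 2.03%, 2.61% and 3.20% in 3×FG, against 26.9%, 27.6% and 19.5% in WT. In the inputs its share was 11.6%, 10.8% and 8.77% in 3×FG, against 22.4%, 23.8% and 26.8% in WT. Thus the share of *smut-1* was higher in the IP than in the input of WT lysates 1 and 2, and lower in that of WT lysate 3. In each 3×FG lysate it was lower in the IP than in the input.

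**Figure D3:**
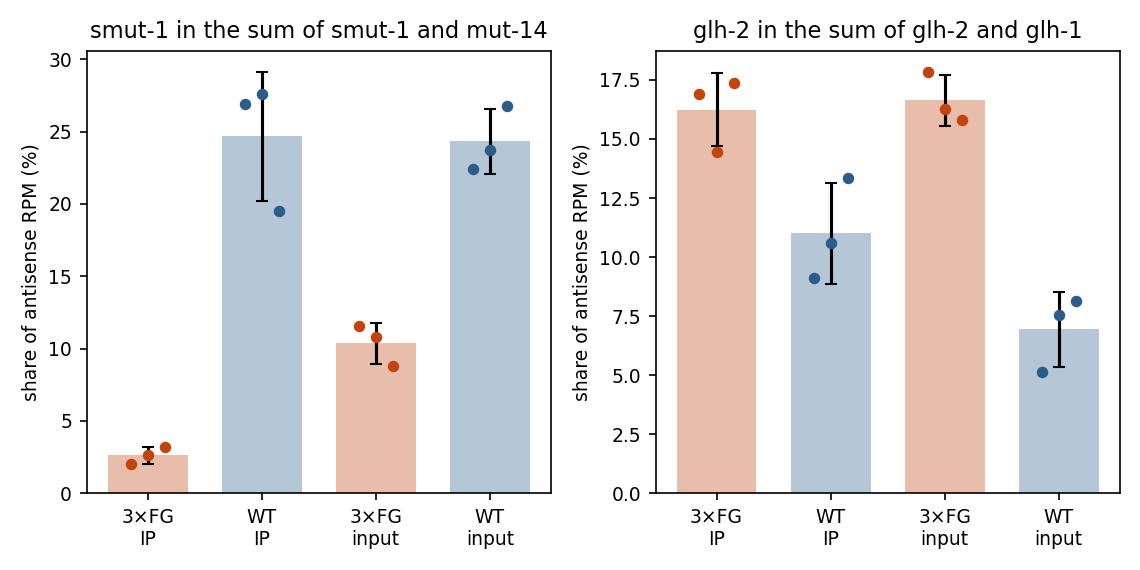
Share of *smut-1* in the summed antisense RPM of *smut-1* and *mut-14* (left) and of *glh-2* in that of *glh-2* and *glh-1* (right), in percent, with 1 point per library, the mean as a bar from 0 and the SD as an error bar (n = 3), 3×FG left of WT. The share of *smut-1* averages 2.61% in 3×FG IPs and 24.7% in WT IPs, and that of *glh-2* averages 16.6% in 3×FG inputs and 6.94% in WT inputs.

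The share of *glh-2* in the sum of *glh-1* and *glh-2* moved the other way. It was 17.8%, 16.3% and 15.8% in the 3×FG inputs, against 5.15%, 7.53% and 8.15% in the WT inputs. The summed level itself was 339 ± 48.4 RPM in the 3×FG inputs and 270 ± 14.8 RPM in the WT inputs (SD, n = 3 each). For the IPs the sum was 866 ± 41.9 RPM in 3×FG and 778 ± 68.1 RPM in WT (SD, n = 3 each). In the IPs the share was 16.9%, 14.5% and 17.4% in 3×FG and 9.11%, 10.6% and 13.3% in WT. No share overlapped between genotypes.

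The last exon of *smut-1* shares 92 bases (V:6098992-6099083) with *crt-1*, the calreticulin gene on the opposite strand, so that sense reads of *crt-1* from this stretch and antisense reads of *smut-1* are on the same strand. The sense row of *crt-1* stood at 49.1, 49.4 and 33.6 CPM in the 3×FG inputs, 61.7 CPM in WT input 3 and 1.36 and 1.154 CPM in WT inputs 1 and 2. The *smut-1* antisense level was 18.6 to 21.95 RPM across the 3 WT inputs. The *crt-1* values cover the whole gene, not the shared stretch, and the inputs only. Whether *crt-1* reads entered the *smut-1* antisense row was not tested. No other member shared exonic bases with a gene on the opposite strand.

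Per kilobase of exon, *glh-4* and *mut-14* had the highest IP levels in both genotypes, at 768 ± 87.6 and 670 ± 35.8 RPM per kb in 3×FG and 498 ± 24.9 and 477 ± 22.9 RPM per kb in WT (SD, n = 3 each). Within each genotype the ranges of these 2 overlapped. *glh-1* followed at 262 ± 12.8 RPM per kb in 3×FG and 250 ± 27.8 RPM per kb in WT, apart from its neighbours in both. In 3×FG the order went on with *cgh-1* (172 to 198 RPM per kb) and *vbh-1* (131 to 144 RPM per kb), whose ranges did not overlap. In WT it went on with *smut-1* (156 ± 29.7 RPM per kb), *vbh-1* (149 ± 20.5 RPM per kb), *cgh-1* (116 ± 12.9 RPM per kb) and *rde-12* (114 ± 4.56 RPM per kb), of which each overlapped its neighbour. The place of *smut-1* was thus the fourth in WT and the last in 3×FG, at 17.9 ± 3.69 RPM per kb beside *laf-1* at 20.3 ± 0.856 RPM per kb, with overlapping ranges.

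For a comparison of edited with unedited helicases, the mean log2 level over *glh-4*, *glh-2* and *glh-1* minus that of the 7 unedited helicases was taken in each library. In the inputs this gap was 2.27, 2.30 and 2.22 in 3×FG, against 1.32, 1.27 and 1.40 in WT (log2 CPM after TMM). In the IPs it was 1.54, 1.52 and 1.63 in 3×FG and 0.57, 0.55 and 0.84 in WT (log2 RPM). The groups were apart in both. For the ratio of IP to input the gap was -0.73, -0.77 and -0.57 in 3×FG and -0.72, -0.73 and -0.56 in WT, which overlapped. The difference of the input gaps between genotypes was 0.93 with all members, 0.66 without *glh-2*, and 0.57 without *smut-1* and *vbh-1*, a choice made after the data were seen. In the IPs the difference was 0.91 with all members, 0.78 without *glh-2* and 0.44 without *smut-1* and *vbh-1*, both also chosen after the data were seen. Without *smut-1* and *vbh-1* the IP gaps were 1.14, 1.17 and 1.32 in 3×FG and 0.71, 0.70 and 0.91 in WT, still without overlap.

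**Figure D4:**
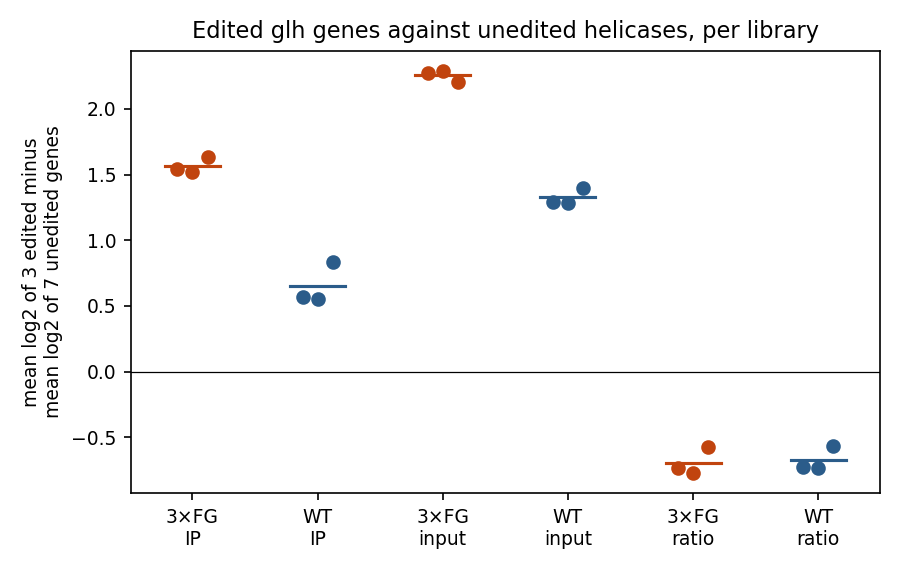
Mean log2 RPM of the 3 edited genes minus that of the 7 unedited helicases in each IP, each input and for each IP-to-input ratio (log2), with 1 point per library or lysate and the mean as a line, 3×FG left of WT. The IP gaps are 1.52 to 1.63 in 3×FG and 0.55 to 0.84 in WT, and the ratio gaps overlap.

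The gap was no common change of the 3 GLH genes. *glh-4* and *glh-2* were higher in 3×FG and *glh-1* overlapped. On the unedited side *cgh-1* and *mut-14* were higher by amounts like those of *glh-4*, at IP folds of 1.59 and 1.41 for *cgh-1* and *mut-14* against 1.54 for *glh-4*. The remaining unedited genes overlapped or were lower in the IPs.

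**Figure D5:**
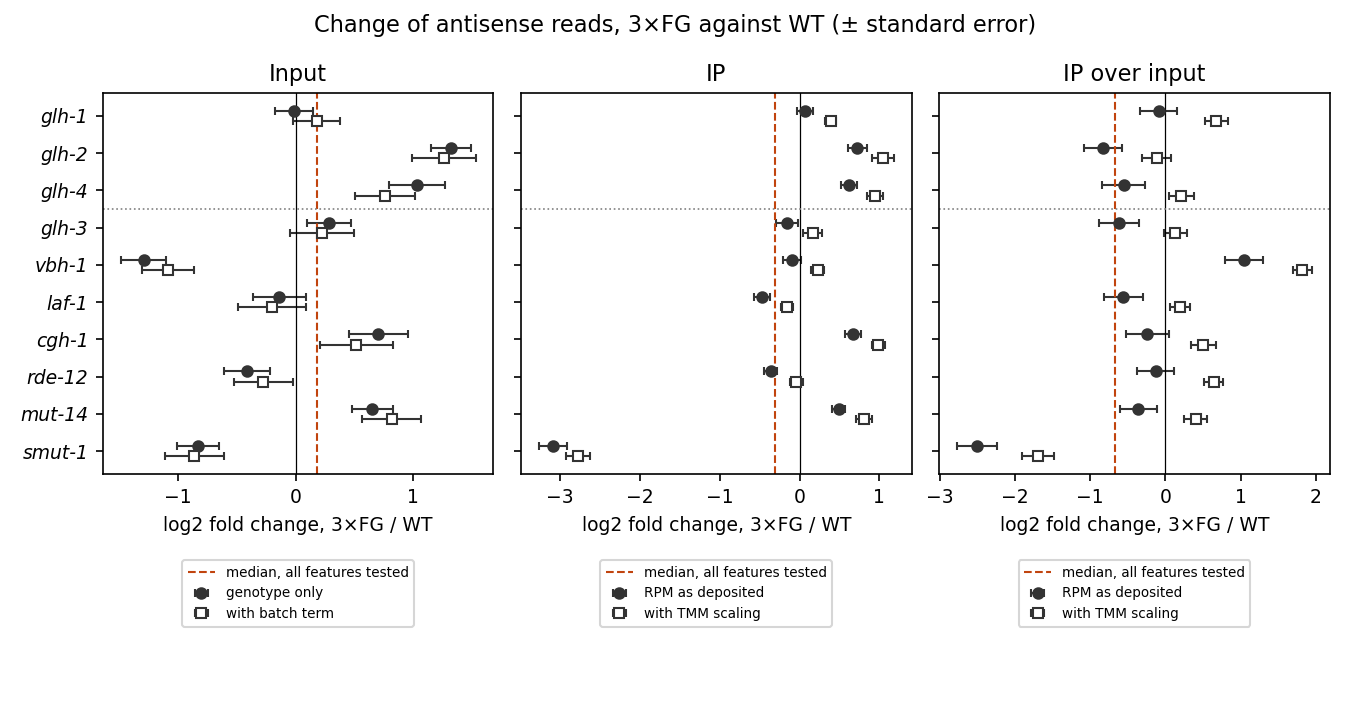
Log2 fold change of antisense reads (3×FG over WT) with its standard error for each helicase in the inputs (edgeR), the IPs and the ratio of IP to input (limma). Filled circles give the fit described first in the text, open squares the fit with a batch term (inputs) or with TMM scaling, and the dashed line is the median of all features tested (0.18, -0.30 and -0.67). *smut-1* lies far below the median in the IPs and the ratio, and *vbh-1* far above it in the ratio.

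The sense rows of the members, which hold reads on the strand of the transcripts and not of 22G-RNAs, were read in the inputs only. On that strand the snoRNA gene *K09H9.11* overlaps *vbh-1*, and the snoRNA gene *C07H6.10* overlaps *cgh-1*. Whether snoRNA reads entered these rows was not tested. None of the 9 was called by edgeR or by DESeq2. An unadjusted p under 0.05 (edgeR), which 5748 of the 22301 features had, was found for 1, *vbh-1*. Its sense levels were 91.8, 98.1 and 89.7 CPM in 3×FG and 34.9, 38.6 and 58.3 CPM in WT. *cgh-1* stood at 58.6, 42.2 and 38.1 CPM in 3×FG and 3.62, 7.69 and 75.2 CPM in WT. In all 9 genes both WT libraries of batch A lay below all 4 libraries of batch B. Compared with WT input 3 of their own batch, the 3×FG libraries lay wholly above for 2 genes and wholly below for 6. With the batch as a term, or within batch B, the sense change took the other sign in 7 of the 9 genes, the exceptions being *glh-1* (0.25 with the term, against 1.26 without it) and *vbh-1* (0.57 against 0.89), and 0 were called. Without WT input 3, that is with genotype and batch fully aligned, 7 were called, where 31.8% of all features were called. For *smut-1*, WT input 2 had 0 sense counts, which at its depth allows up to 0.577 CPM (3 counts, counting error only).

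Antisense rows of 69 further genes, in 5 lists of other helicases and of known partners, were read from the same fits. In the inputs 61 were tested and 1 was called by edgeR (2.87% of all features were), *ntl-3*, a subunit of the CCR4-NOT deadenylase that works with CGH-1, at -1.69 (standard error 0.17, adjusted p = 0.0026). At an unadjusted p under 0.05 (edgeR) there were 14 higher and 2 lower, against 5748 of the 22301 features in either direction. DESeq2 called 1 higher (*meg-3*) and 1 lower, where 10.9% of all features were called. In the IPs 51 were tested, of which 0 were called higher and 5 lower, where 20.3% of all features were called. The median change over these 51 genes was -0.12, against -0.30 over all 4080 features. With an adjusted p under 0.01 alone there were 6 higher and 15 lower of the 51, where 8.55% of all features were higher and 40.5% were lower. With TMM scaling there were 21 higher and 10 lower, against 1000 higher and 1149 lower of the 4080 features. By the call rule TMM scaling gave 1 higher, *wago-4* at 1.04, and 3 lower.

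Among Mutator partners, 1 of 8 tested genes fell in the IPs. This was *rde-8*, an RNase needed for RNAi, at -2.05 (limma adjusted p = 1.4e-06), which is the same direction as *smut-1* and not as *mut-14*. Of the P granule partners of the GLH proteins, 1 of 10 fell, *pgl-2*, at -1.71, and 3 others had a higher level at an adjusted p under 0.01, among them *wago-4* itself at 0.72, whose locus carries the tag in both genotypes. The median of these 10 was 0.20, and 0.52 with TMM scaling. Of the partners of CGH-1, 1 of 10 fell, the decapping scaffold gene *edc-4* at -1.32. Of the partners of RDE-12, 1 of 3 fell, the Argonaute gene *ergo-1* at -1.39. Of 20 other RNA helicases, 1 fell, *ddx-35* at -1.25. With TMM scaling *edc-4* was at -0.999 and *ddx-35* at -0.94, and neither was called.

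In the ratio of IP to input, 11 of these 51 genes fell and 0 rose, where 24.1% of all features fell. They included *rde-8* (-1.80), *nyn-2* (-1.57) and *mut-15* (-1.03) of the Mutator list, *edc-4* (-1.86), *pgl-2* (-1.61), *rde-1* (-1.34) and *ergo-1* (-1.19), and the helicase genes *sacy-1* (-1.09), *mtr-4* (-1.06), *ddx-23* (-1.06) and *rha-2* (-1.05). At an unadjusted p under 0.05 (limma) there were 0 higher and 36 lower, against 2435 of the 4080 features in either direction. With TMM scaling 1 of the 51 fell, *edc-4* at -1.10, and 0 rose. No gene of the 5 lists had the pattern of *vbh-1*, a ratio called higher in 3×FG.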

How the data were processed

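For the inputs the authors deposited unnormalised read counts, with separate rows for sense and antisense reads of a feature. For IPs and inputs together they deposited RPM values (reads scaled to a library total of 1000000, plus 0.01) of the features they defined as WAGO-4 targets of a genotype, which reach 5 RPM in every IP and a level there of at least 2 times the paired input. The submitters' processing notes name cutadapt 1.15, STAR 2.6.0c and the builds ce10 and ce11, without their roles, and how reads matching several places were counted is not given in the sources used here. The authors' columns of averages and enrichment were not used, and ratios were recomputed from RPM. Rows of reads on no feature (4.58% to 6.14%) were left out of the features and library sizes of the tests, but the depths and CPM values printed count them. Coordinates and exon lengths are from the WBcel235 annotation.

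Input counts of all features on both strands were tested with edgeR 4.0.16 (quasi-likelihood test, TMM, filterByExpr) over the 6 inputs. IP levels, and the interaction of genotype with IP against input, were tested with limma 3.58.1 (limma-trend) on log2(RPM + 1) over the 4080 features in both target tables. Fold changes on this scale are understated for low features. P-values were adjusted by Benjamini-Hochberg over all features tested. For edgeR the standard error was taken as the absolute log2 fold change over the square root of F. Levels per kb use all exonic bases. R 4.3.3 and DESeq2 1.42.0 were used too. On simulated data, 200 of 200 changed features were recovered in each of the 3 tests. In the ratio of IP to input 3 unchanged features were called there, and 0 in the other comparisons. How many features the tests miss or call wrongly in the real libraries, with their batches and depths, was not tested.

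The text names all 10 members, with sense rows read for 9 of them, and of 5 lists of partners those called, at most 4 a list in a comparison. The members and lists were chosen with earlier results of these data known. Of the lists, *rig-6*, which is no helicase, and *eri-4*, a synonym of *dcr-1*, were dropped. A planned count of 22-base windows shared between paralogs was not run, since no genome sequence was used here. Replicate numbers were not used to pair 3×FG with WT in the main fits. Same-numbered libraries deviated from their group means with correlations of -0.33, -0.03 and -0.27 in the inputs and -0.15, 0.31 and 0.20 in the IPs. The library names give the same R number to WT input 3 and 3×FG input 1. For these lysates the correlation was 0.40 in the inputs and 0.16 in the IPs. Over every pair of libraries it was -0.33 to 0.40 in the inputs and -0.40 to 0.38 in the IPs. IP and input of a lysate were paired through the library names, with correlations of 0.01 to 0.12. Antisense counts per member were lowest in WT input 1 (27 to 631), and no counts were analysed for the IPs.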

Additional observations from a re-analysis of the deposited data

Results flagged for a closer look

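The ratio of IP to input changed between 3×FG and WT at an adjusted p under 0.01 (limma, interaction of genotype with IP against input) for 3 of the 10 helicases. For *glh-2* the change was -0.83 on the log2 scale, with ratios of 2.31 to 2.66 in 3×FG and 4.06 to 5.26 in WT, without overlap. Over all features the median was -0.67, and with TMM scaling the *glh-2* change was -0.11 (limma adjusted p = 0.71). Without any 1 lysate its adjusted p was 0.012 to 0.055 (limma). For *vbh-1* the change was 1.04, with ratios of 4.37 to 5.95 in 3×FG and 2.31 to 3.13 in WT, without overlap. For *smut-1* it was -2.50, with ratios of 2.11 to 2.82 in 3×FG and 9.72 to 16.2 in WT, without overlap. Ratios of the genotypes did not overlap for 58.5% of all 4080 features.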

How the results depend on the processing

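The number of helicases called in the inputs was 1 and became 2 with DESeq2, over WT target features only, with a batch term or within batch B (*glh-2* and *vbh-1* each time), 3 without the low-count filter (these and *glh-4*), and 0 with the replicate block. Leaving out 1 input gave 0 to 3 called helicases, with 3 only without WT input 3, and 0 otherwise. Features called over the whole table of inputs were 641, and 2435 with DESeq2, 1511 with a batch term, 1668 within batch B, 0 with the replicate block (4448 at an unadjusted p under 0.05) and 9 to 7038 without 1 input, the highest without WT input 3. In the IPs the number was 1, and 2 with TMM scaling (*glh-2* added), and the replicate block changed no call there. In the ratio it was 2, and 1 with WT input 3 as the only WT input or without 1 of 4 lysates (range 1 to 2), where *vbh-1* was lost. The lysate as a block changed no call. TMM scaling left 163 features called in the ratio, against 993, and 547 to 1423 were called without 1 lysate. The difference of the input gap between edited and unedited genes was 0.93, 0.66 without *glh-2* and 0.57 without *smut-1* and *vbh-1*. In the IPs it was 0.91, 0.78 and 0.44 over the same choices. The causes were not tested beyond what these settings remove.

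Of 340 antisense changes of members under an alternative, 23 took the other sign, and none of these was called in either setting. In the inputs *glh-1* went to 0.19 with total-count scaling, 0.27 without the filter and 0.18 with the batch term or within batch B, and from -0.053 to 0.17 without 1 input. *laf-1* went to 0.057 with total-count scaling, 0.13 without the filter, and from -0.21 to 0.034 without 1 input. In the IPs, TMM scaling gave 0.17 for *glh-3* and 0.23 for *vbh-1*, and *glh-1* ranged from -0.011 to 0.15 without 1 IP. In the ratio, TMM scaling gave 0.68 for *glh-1*, 0.21 for *glh-4*, 0.13 for *glh-3*, 0.20 for *laf-1*, 0.50 for *cgh-1*, 0.64 for *rde-12* and 0.40 for *mut-14*. *cgh-1* was at 0.10 with WT input 3 as the only WT input and at -0.49 to 0.046 without 1 lysate. The depth of WT inputs 1 and 2 and their separate batch limit the input comparisons and those of the ratio. The ratios of WT lysates 1 and 2 set an IP of batch B against an input of batch A, whereas the other ratios lie within batch B. The planned count of shared 22-base windows was not run.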
